A study of Mus musculus with 4 samples.

Results

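The genes described here are 40 mouse genes of cell division, chosen by symbol. All 40 were found among the 32285 genes of the count table. They were followed in leukocytes of the ovary, where cells that had at least 1 transcript molecule (UMI, unique molecular identifier) of Mki67 and at least 1 of Top2a were called dividing cells. The treated group was 5 female C57BL/6J mice given gonadotropin, and the other group was 5 female C57BL/6J mice given saline, labelled untreated. Mice were 10 to 12 weeks old, and ovaries were taken 48 h after the treatment. Gonadotropins are the pituitary-type hormones that drive follicle growth and ovulation. The product, dose and schedule are not given in the sources used here. Cells carrying CD45, the surface protein of leukocytes, were sorted, each mouse was marked by an antibody with a hashtag of its own, and all 5 mice of a treatment shared 1 droplet library. Treatment and library cannot be told apart, and a mouse is a replicate within its library.

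Cell division runs through DNA replication and then mitosis. Replication needs the MCM helicase, the sliding clamp Pcna and enzymes that supply deoxynucleotides. Mitosis is started by the kinase Cdk1 with cyclins A and B, is carried out by a spindle of microtubules with kinesin motors, and is ended when a ubiquitin ligase marks cyclin B for destruction. Most of these genes are transcribed in waves, so their transcripts are used to find dividing cells, and Mki67 encodes the Ki-67 protein that pathologists stain for the same purpose. Most circulating lymphocytes and mature granulocytes rest outside the cell cycle, while tissue macrophages are known to be able to divide in place.

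The 40 genes were grouped by role. DNA replication had 12 members, mitotic cyclins and kinases 7, spindle and cytokinesis 7, checkpoint and ubiquitin ligase 5, chromatin and microtubule genes 4, centromere genes 3, and the 2 partners of Aurkb in the chromosomal passenger complex were Birc5 and Cdca8. Mki67 lies on chromosome 7 (135689784 to 135716450), Top2a on chromosome 11 (98992947 to 99024199) and Cenpa on chromosome 5 (30666877 to 30674837) in GRCm38.p6. Reads were assigned to genes by the authors. The RefSeq gene table also lists the pseudogenes Ccnb1-ps, Tyms-ps and Pcna-ps1, so the counts of Ccnb1, Tyms and Pcna are uncertain where such a copy shares their reads.

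The promoters of the members differed by role in the letters they hold. Genes of mitosis are known to be repressed in resting cells by the DREAM complex, which binds a short element called CHR, and many promoters of the cell cycle also hold a CCAAT box, bound by NF-Y, or a site of the E2F factors. Windows from 250 bases before to 50 bases after the transcription start were in the RefSeq table for 35 of the 40 members. The letters TTTGAA or TTCGAA, taken as CHR and searched on both strands, were found in 20 of 24 windows of members with other roles than DNA replication (83.3%). They were found in 1 of 11 replication windows (9.09%) and in 19.4% of 27025 windows, 1 for each gene of the table. CCAAT was found in 20 of the 24 (83.3%), in 9 of the 11 replication windows (81.8%) and in 37.9% of all windows. The E2F letters TTTGGCGC, TTTCCCGC, TTTCGCGC or TTTGCCGC were found in 1 of the 24, in 4 of the 11 replication windows (36.4%) and in 2.32% of all windows. A match is a description of the letters and not a bound site. In Mcm5 an E2F match on each strand overlaps the other. The windows below are shown because they belong to the 2 genes that define dividing cells, to 2 members of mitosis, to the centromere gene that differed between the groups, and to 2 replication genes for contrast. They are from RefSeq, GRCm38.p6, read 5′ to 3′ on the gene's own strand, with CHR, CCAAT and E2F letters in capitals.
Mki67 (chr7:135716330-135716629, minus strand): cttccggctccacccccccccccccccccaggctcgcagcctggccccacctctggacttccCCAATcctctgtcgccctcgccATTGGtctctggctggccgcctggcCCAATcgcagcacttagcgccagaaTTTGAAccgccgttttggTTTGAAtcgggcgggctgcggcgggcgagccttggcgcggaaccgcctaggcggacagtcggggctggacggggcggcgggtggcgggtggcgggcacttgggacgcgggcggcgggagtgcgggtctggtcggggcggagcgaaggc
Top2a (chr11:99024140-99024439, minus strand): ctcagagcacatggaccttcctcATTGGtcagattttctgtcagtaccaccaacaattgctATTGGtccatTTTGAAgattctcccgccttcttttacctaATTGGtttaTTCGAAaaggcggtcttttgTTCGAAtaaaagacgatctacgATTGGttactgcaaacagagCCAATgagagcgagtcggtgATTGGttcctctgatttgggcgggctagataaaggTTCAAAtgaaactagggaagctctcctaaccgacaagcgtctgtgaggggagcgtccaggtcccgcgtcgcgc
Ccnb2 (chr9:70421505-70421804, minus strand): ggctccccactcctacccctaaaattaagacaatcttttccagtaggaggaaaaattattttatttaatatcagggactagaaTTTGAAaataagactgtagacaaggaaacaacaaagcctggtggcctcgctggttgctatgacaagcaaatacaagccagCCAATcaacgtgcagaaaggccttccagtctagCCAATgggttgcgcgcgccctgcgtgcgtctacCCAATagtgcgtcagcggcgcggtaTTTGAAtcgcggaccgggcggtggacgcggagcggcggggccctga
Cdc20 (chr4:118437294-118437593, minus strand): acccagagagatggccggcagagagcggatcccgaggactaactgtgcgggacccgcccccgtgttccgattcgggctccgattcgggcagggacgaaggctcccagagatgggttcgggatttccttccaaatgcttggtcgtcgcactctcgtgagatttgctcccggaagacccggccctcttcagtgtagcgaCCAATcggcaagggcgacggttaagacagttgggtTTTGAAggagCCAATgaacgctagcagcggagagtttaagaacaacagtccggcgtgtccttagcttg
Cenpa (chr5:30666636-30666935, plus strand): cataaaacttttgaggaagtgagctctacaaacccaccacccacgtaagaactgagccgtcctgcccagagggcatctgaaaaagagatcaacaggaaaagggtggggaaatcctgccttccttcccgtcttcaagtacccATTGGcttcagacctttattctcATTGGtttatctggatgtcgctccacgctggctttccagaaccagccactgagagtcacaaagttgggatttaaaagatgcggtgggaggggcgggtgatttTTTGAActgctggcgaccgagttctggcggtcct
Mcm5 (chr8:75109259-75109558, plus strand): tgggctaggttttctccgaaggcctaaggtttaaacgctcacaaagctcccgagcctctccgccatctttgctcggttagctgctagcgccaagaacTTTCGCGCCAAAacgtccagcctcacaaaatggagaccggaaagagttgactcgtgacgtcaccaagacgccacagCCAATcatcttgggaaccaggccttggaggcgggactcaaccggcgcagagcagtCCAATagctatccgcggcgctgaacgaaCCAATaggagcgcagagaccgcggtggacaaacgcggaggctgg
Pcna (chr2:132253131-132253430, minus strand): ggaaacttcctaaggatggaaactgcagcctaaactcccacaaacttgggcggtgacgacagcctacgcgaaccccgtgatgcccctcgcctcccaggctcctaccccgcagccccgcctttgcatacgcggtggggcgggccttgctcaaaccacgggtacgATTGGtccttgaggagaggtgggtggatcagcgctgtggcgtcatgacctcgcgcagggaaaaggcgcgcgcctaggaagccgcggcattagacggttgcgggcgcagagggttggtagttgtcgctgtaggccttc

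The libraries gave 2423 cells of gonadotropin mice and 2495 of untreated mice after filtering, 290 to 828 and 296 to 726 per mouse. The median cell held 7034 UMIs in the gonadotropin and 7664 in the untreated library. Ptprc, which encodes CD45, had a UMI in 4803 of the 4918 cells. The libraries shared 4 barcode sequences, 2 of them among kept cells. Cells were given a type by which of 17 lists of 6 marker genes had the most genes detected, with at least 2 needed. This gate named 2437 B cells, 1260 T cells, 551 natural killer (NK) or ILC1 cells, 163 macrophages, 146 monocytes, 111 neutrophils and 52 dendritic cells among others.

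Dividing cells were rare, and their share did not differ between the groups beyond the spread between mice. They numbered 50 of 4918 cells, or 1.02%, of which 29 were from gonadotropin and 21 from untreated mice. The gonadotropin mice had 3 dividing cells of 563, 5 of 378, 5 of 290, 7 of 828 and 9 of 364. The untreated mice had 5 of 505, 2 of 650, 8 of 318, 3 of 296 and 3 of 726. The ranges overlapped, since gonadotropin mice had 0.533% to 2.47% and untreated mice 0.308% to 2.52%. The mean share was 1.38% ± 0.761 in gonadotropin and 1.05% ± 0.882 in untreated mice (SD, n = 5 each), a difference within the spread between mice (exact two-sided permutation test, p = 0.524; the smallest possible is 0.00794). The difference of 0.331 percentage points was 0.0582 without gonadotropin mouse 5, 0.146 without untreated mouse 2, 0.173 without untreated mouse 5, 0.543 without gonadotropin mouse 1 and 0.698 without untreated mouse 3. It turned to -0.169 percentage points when at least 2 UMIs of each gene were asked for, and to -0.221 when each cell was thinned to 2000 UMIs.

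**Figure D1:**
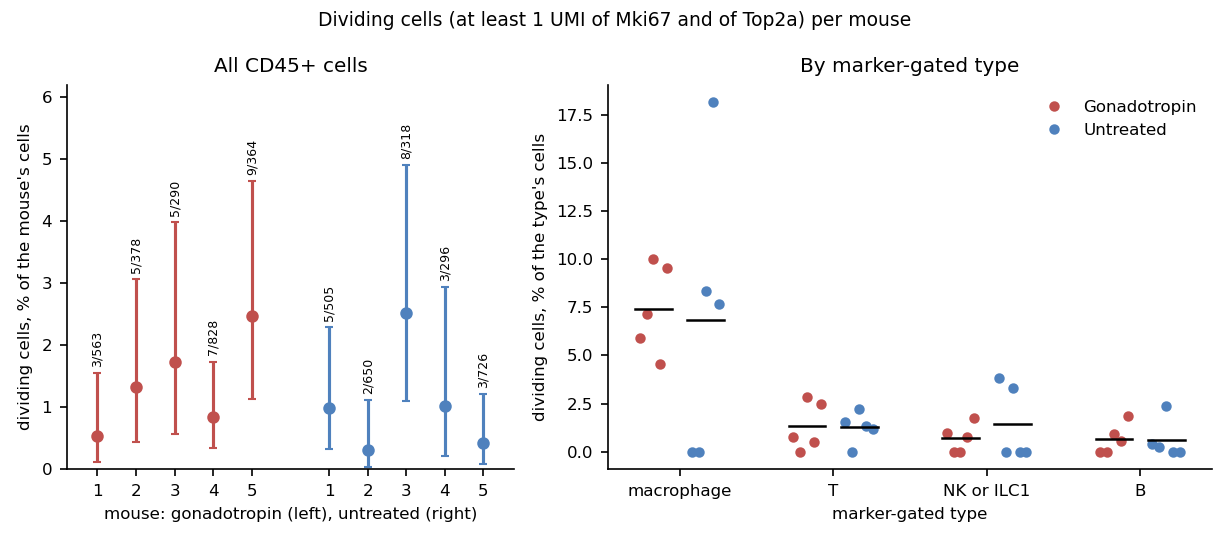
Left: dividing cells as a percent of each mouse's cells, with exact 95% intervals that cover counting error only and the counts above. Right: the same share within 4 marker-gated types, 1 point per mouse, bars at the group means. The 5 gonadotropin mice lie between 0.533% and 2.47% and the 5 untreated mice between 0.308% and 2.52%. Macrophage points reach 10.0% in gonadotropin and 18.2% in untreated mice, from 9 to 28 cells each.

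By type, macrophages held the highest share of dividing cells among the 6 types compared within mice, and B cells a low one. Of 163 macrophages 12 were dividing, against 12 of 2437 B cells, 14 of 1260 T cells and 5 of 551 NK or ILC1 cells. Dendritic cells had 4 of 52. Monocytes had 0 of 146, which allows up to 2.05% for a count of 0, and neutrophils 0 of 111, which allows up to 2.70%. The 8 dividing macrophages of gonadotropin mice were spread over all 5 of them at 4.55% to 10.0%. The 4 of untreated mice came from 3 of 5, at 7.69%, 8.33% and 18.2% in mice with 11 to 13 macrophages. Compared within each mouse, macrophages had 7.13% ± 5.25 dividing cells against 0.936% ± 0.716 of all other cells (SD, n = 10 mice). They were higher in 8 of 10 mice, and the 2 others had no dividing macrophage among 9 and 10 cells (exact sign-flip permutation test, adjusted p over 6 types = 0.0117).

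B cells were lower than the other cells of the same mouse in 10 of 10 mice, at 0.630% ± 0.841 against 1.72% ± 0.847 (exact sign-flip permutation test, adjusted p = 0.0117). With at least 2 UMIs of each gene B cells were lower in 6 of 10 mice, at a difference of -0.417 percentage points, and no longer passed (exact permutation, adjusted p = 0.114). Monocytes, at 0 in all 8 mice compared, and neutrophils, at 0 in all 9, can only fall below the other cells. Both thus had the smallest p possible, 0.00781 and 0.00391 (exact sign-flip permutation test, adjusted p = 0.0117 each), which shows no lower share. Their limits of 2.05% and 2.70% lie above the 1.124% and 1.10% of those cells, so a lower share was not detectable at this number of cells. Both count among the 6 types of the adjustment, and the unadjusted p of macrophages was 0.00781 (exact sign-flip permutation test). T cells, at 1.29% ± 1.003 against 1.19% ± 0.872, and NK or ILC1 cells, at 1.07% ± 1.46 against 1.26% ± 0.846, did not pass (exact sign-flip permutation test, adjusted p = 0.732 each). The macrophage result depended on the definition too. It passed when at least 5 members with mitotic roles were asked for instead, at 10.2 percentage points (exact permutation, adjusted p = 0.031). It also passed with at least 3 markers in the gate, at 6.22 percentage points (exact permutation, adjusted p = 0.0117). With at least 2 UMIs of each gene, the macrophage difference was 2.64 percentage points and no longer passed (exact permutation, adjusted p = 0.114). At 2000 UMIs per cell it was 3.79 (exact permutation, adjusted p = 0.375). The median macrophage held 3549 UMIs, against 6689 in B cells and 8176 in T cells. At 4000 UMIs per cell 83 of 163 macrophages were too shallow, and 3 of the other 80 were dividing.

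Within a type, no difference in share between the groups passed the test. B cells had 0.653% ± 0.760 dividing cells in gonadotropin and 0.607% ± 1.01 in untreated mice. T cells had 1.32% ± 1.27 and 1.26% ± 0.800, and NK or ILC1 cells 0.701% ± 0.737 and 1.44% ± 1.97, gonadotropin before untreated (SD, n = 5 each; exact permutation test, adjusted p = 0.952 for all 3 types). The NK or ILC1 difference was -0.735 percentage points, and -0.132 without untreated mouse 1 or -0.260 without untreated mouse 3. Macrophages had 8 of 108 and 4 of 55, gonadotropin before untreated. Their median depth was 3027.5 UMIs in gonadotropin and 10041 UMIs in untreated mice, so these shares were not taken at like depth. Macrophages were too few per untreated mouse for a test of the groups.

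The dividing cells were not alike, and a few of them held most of the transcripts of mitosis. Of the 26 members with mitotic roles, Mki67 and Top2a included and Hmgb2 and Stmn1 left out, 17 cells had 17 to 26 detected. These 17 cells held 90.2% of the mitotic UMIs of all 50 dividing cells, and 7 of them were from gonadotropin and 10 from untreated mice, with at least 1 from every mouse. The only 1 of gonadotropin mouse 2 had no Ptprc UMI and held genes of granulosa cells, as described below, so it may not be a leukocyte. The limits between the classes were set after the values were seen. Another 19 cells had 5 to 14 members detected, and the last 14 had 2 to 4, of which 9 had a single UMI each of Mki67 and Top2a. The 14 cells with 2 to 4 members held 1.23% of the mitotic UMIs. A cell of the upper class had 58 to 450 mitotic UMIs and 15107 to 46136 UMIs in all. An 18th cell with at least 17 mitotic members, an NK or ILC1 cell of an untreated mouse, lacked a UMI of Mki67 or Top2a and fell outside the rule.

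**Figure D2:**
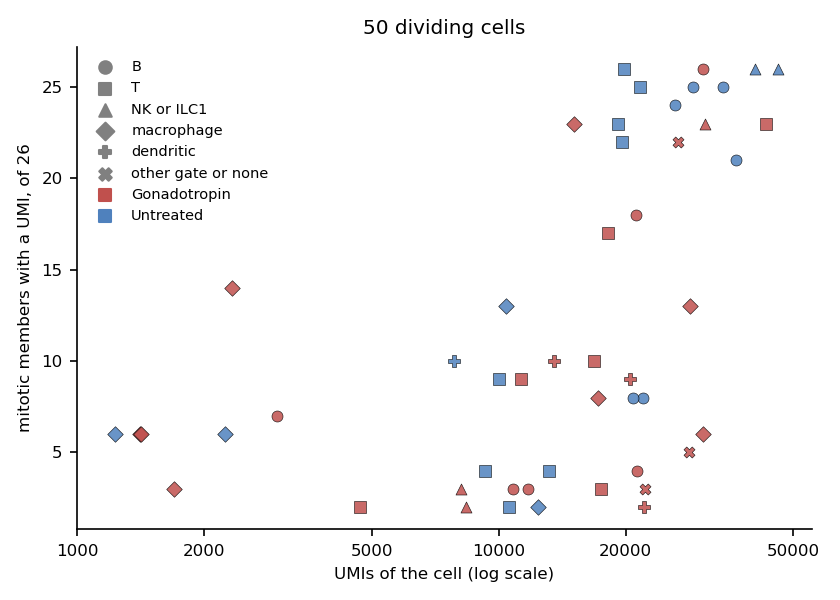
Each point is 1 of the 50 dividing cells, with its total UMIs on a log axis and the number of 26 mitotic members detected. Shape gives the marker-gated type and color the group. The 17 cells with 17 or more members all hold at least 15107 UMIs, and the 6 shallowest macrophages hold at most 2329.

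The upper class was made of 6 B cells, 6 T cells, 3 NK or ILC1 cells, 1 macrophage and 1 cell with genes of another kind. The deepest of these, an NK or ILC1 cell of untreated mouse 1, had 75 UMIs of Mki67, 58 of Top2a and 26 of 26 mitotic members, with 11 of 12 replication members. A T cell of untreated mouse 5 also had 26 of 26 mitotic members, but 3 of 12 replication members, and 405 mitotic against 13 replication UMIs. A B cell of untreated mouse 3 had 121 mitotic and 167 replication UMIs. A B cell of gonadotropin mouse 4 had 309 mitotic and 16 replication UMIs. A T cell of gonadotropin mouse 4 had 164 mitotic and 180 replication UMIs. The ratio of replication to mitotic transcripts thus differed from cell to cell in both groups.

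**Figure D3:**
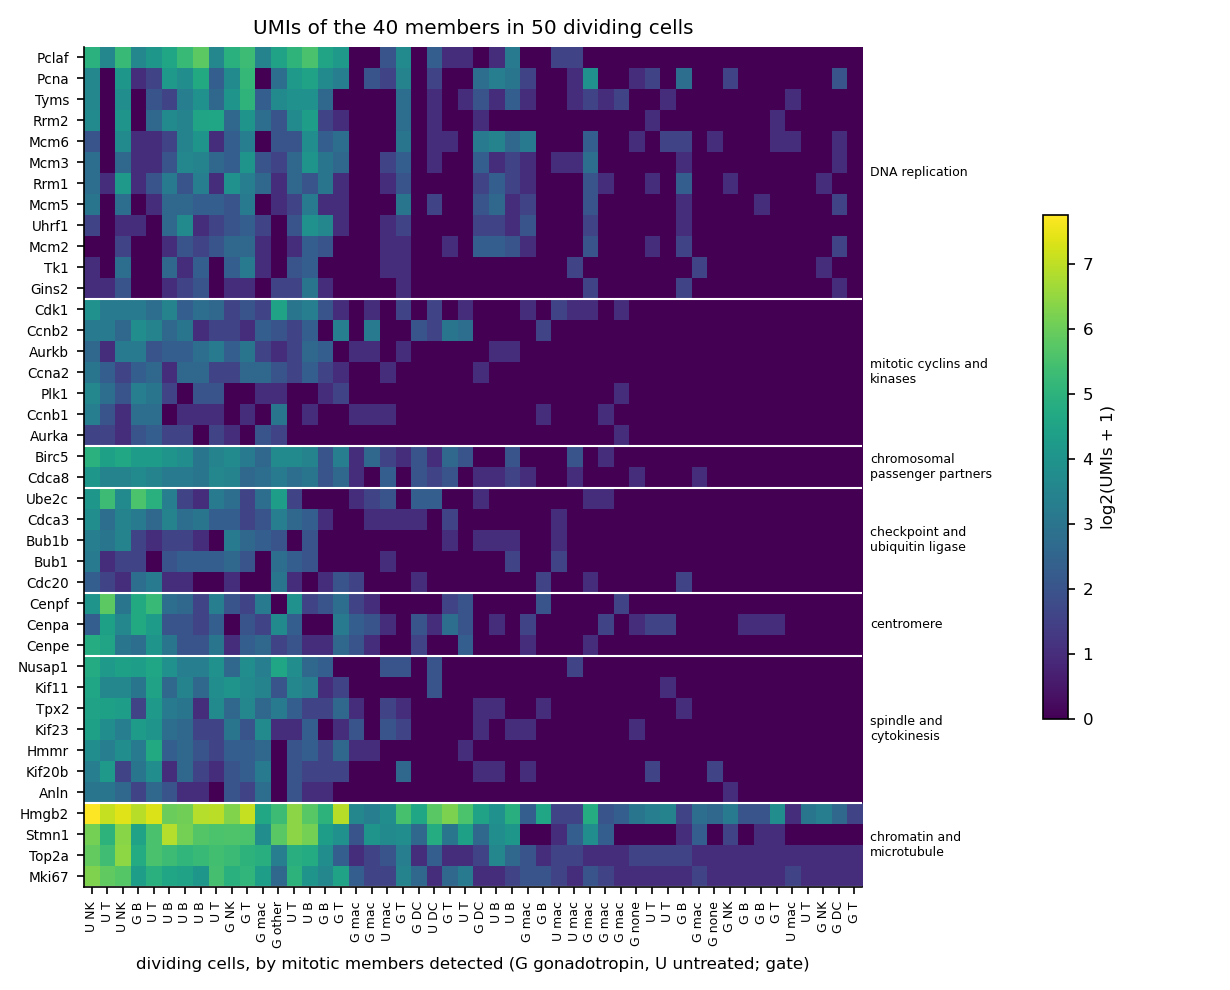
UMIs of the 40 members (rows, by role) in the 50 dividing cells (columns), as log2(UMIs + 1), with cells in order of mitotic members detected. G marks gonadotropin and U untreated mice, with the gate of each cell. The signal of most mitotic genes sits in the 17 cells at the left, while Hmgb2 is found in all 50.

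Markers of subsets, which the rule did not use, were looked at within each type. Of the 12 dividing B cells 10 had a UMI of Zbtb32 or Il5ra, genes known from B-1 cells, and 0 of 12 had Fcer2a, a gene of follicular B cells. Among the other B cells 44.3% had Zbtb32 or Il5ra and 59.8% had Fcer2a. Dividing B cells were deeper, with a median of 21621 UMIs against 6662, and among the 642 other B cells with at least 10000 UMIs the shares were 88.2% and 22.6%. The deep B cells that were not dividing thus had a like share with Zbtb32 or Il5ra, and the part of depth in the difference was not tested. Cr2, also a gene of follicular B cells, was found in 2 of 12 dividing B cells (16.7%). It was found in 39.7% of the other B cells and in 21.8% of the deep ones. Of 14 dividing T cells 6 had a UMI of Cd4 (42.9%) and 4 of Cd8a (28.6%), against 38.6% and 28.01% of the other T cells. Dividing T cells were deeper too, with a median of 17170.5 UMIs against 8140.5. Among the 299 other T cells with at least 10000 UMIs the shares were 25.1% for Cd4 and 50.5% for Cd8a, and the part of depth was not tested. Of 4 dividing dendritic cells 3 had Clec9a, a gene of type 1 conventional dendritic cells, against 41.7% of the other 48, and 2 had Cd209a, against 60.4%.

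The macrophages fell into a shallow and a deep set. Of 12 dividing macrophages 6 had under 3000 UMIs, 4 of gonadotropin and 2 of untreated mice. These had 3 to 14 mitotic members detected, at 23.6 to 112 mitotic UMIs per 10000 UMIs. Among the 6 deeper ones the range was 2.42 to 105 per 10000. Of these deeper cells 4 had at least 3 markers of a second list detected, against 0 of the shallow set and 9 of all 50 dividing cells. Doublets of cells from the same mouse carry 1 hashtag, and their part was not tested. In the shallow set 4 of 6 cells had no Ptprc UMI, against 41 of 70 other macrophages under 3000 UMIs. Of the granulosa markers, 0 UMIs were found in either set of dividing macrophages. Of 6 dividing cells without a Ptprc UMI, 4 were shallow macrophages, 1 was a dendritic cell and 1 a cell that the gate called plasma. With dividing cells limited to those with a Ptprc UMI, an alternative chosen after seeing the data, macrophages still exceeded the other cells of the same mouse, by 4.02 percentage points (exact permutation, adjusted p = 0.0234).

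The cell that the gate called plasma, from gonadotropin mouse 2, went against that name. It had 26676 UMIs, 22 of 26 mitotic members and 0 UMIs of Ptprc, Jchain and Igkc, with 3 of Sdc1 and 7 of Derl3. It had 43 UMIs of Inha, which encodes the inhibin alpha subunit of granulosa cells, 2 of Foxl2, a transcription factor of granulosa cells, and 14 of Hsd17b1, an enzyme that makes estradiol. Inhba, Fshr, Cyp19a1 and Amh, the other 4 markers of the granulosa list, were at 0. It was the only kept cell with at least 2 granulosa markers. The summed level of the granulosa list was 0.979 to 13.3 CPM (counts per 1000000 UMIs) in gonadotropin mice and 0.233 to 2.74 CPM in untreated mice, and without this cell it was 0 to 1.40 CPM in gonadotropin mice.

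Transcripts of the members differed widely in how closely they kept to the dividing cells. The 50 dividing cells were 1.02% of cells and held 2.16% of all UMIs. Of the UMIs of Hmmr, a microtubule protein of the spindle, 95.7% lay in them. Pclaf, a partner of Pcna, followed with 88.2%, Birc5, the survivin subunit of the chromosomal passenger complex, with 85.2%, and Ccna2, cyclin A, with 83.6%. Cenpf, a kinetochore protein, had 82.4% there. For Mki67 and Top2a, which chose the cells, the shares were 83.1% and 70.4%. In all, 21 of 40 members had over 50% of their UMIs in the dividing cells and 13 had under 25%.

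**Figure D4:**
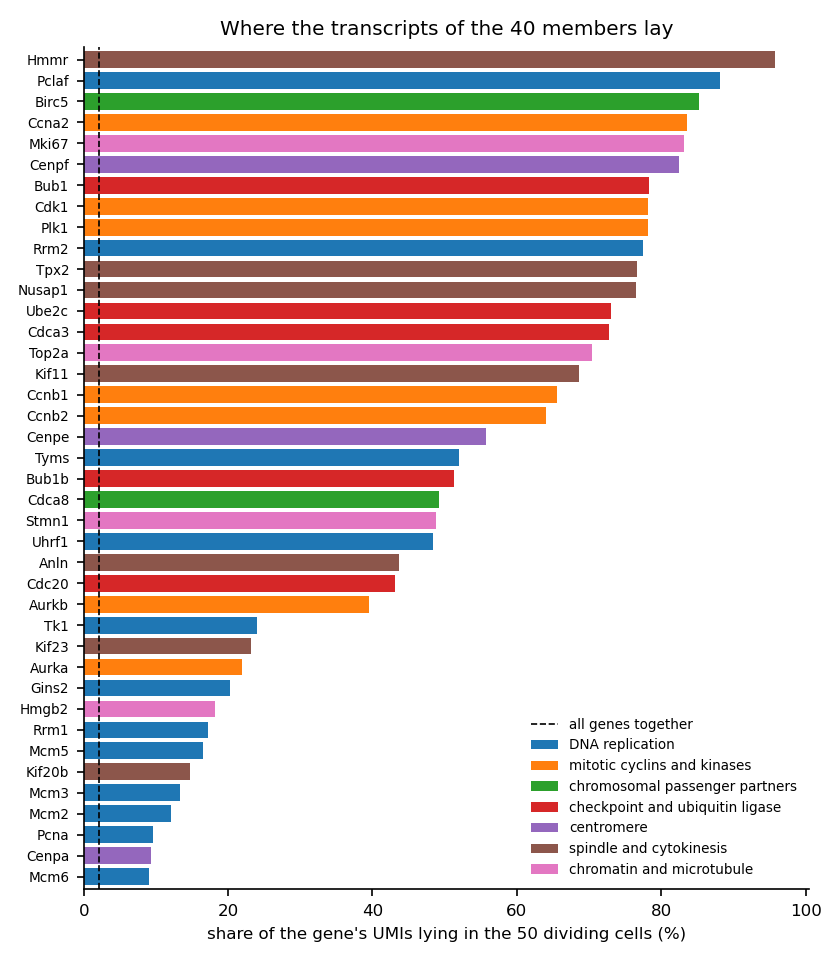
Share of each member's UMIs that lay in the 50 dividing cells, colored by role, with a dashed line at the 2.16% of all genes together. Mitotic genes fill the upper part, from Hmmr at 95.7%, and the MCM genes, Pcna and Cenpa the lower end, down to Mcm6 at 9.03%. Mki67 and Top2a chose these cells.

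Replication genes were mostly found outside the dividing cells. Mcm6 had 9.03% of its UMIs in dividing cells, Pcna 9.52%, Mcm2 12.1%, Mcm3 13.3%, Mcm5 16.5% and the ribonucleotide reductase subunit Rrm1 17.3%. The median over the 12 replication members was 18.8%, against 65.6% over the mitotic cyclins and kinases and 72.7% over the checkpoint and ubiquitin ligase genes. Exceptions within the role were Pclaf, Rrm2, the regulated subunit of ribonucleotide reductase, with 77.5%, and Tyms, thymidylate synthase, with 52.0%. Among members with mitotic roles, Cenpa, the histone of centromeres, was the lowest at 9.26%, and the kinesin Kif20b had 14.7%. Aurka had 21.9% and Aurkb 39.5%, both mitotic kinases.

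Against matched cells, all members were found more often in dividing cells. Each dividing cell was set beside 5 cells of the same mouse and type with no UMI of Mki67 or Top2a and the nearest depth. This gave 211 different matched cells, with a median of 17836 UMIs in dividing and 12901 in matched cells over the sets, so the match in depth was not complete. All 38 members other than Mki67 and Top2a had a UMI in a larger share of dividing than of matched cells, with a median of 44.0% against 2.18%. Of 16572 genes with a UMI in these cells, 67.1% had a larger share. Shares and CPM of matched cells are means over the sets. The cells were chosen by 2 members of the same programme, so no test was made. The members found in the fewest dividing cells were Aurka with 24.0%, Plk1 with 26%, and Anln and Tk1 with 30.0% each.

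Cyclins and kinases of mitosis were nearly absent from matched cells. Cdk1, the kinase that starts mitosis, had 129 UMIs in the 50 dividing cells and 0 in the 211 matched ones. Ccnb2, cyclin B2, had 112 UMIs in dividing cells and 1 over the 211 matched cells. Aurkb had 77 UMIs and was found in 42.0% of dividing against 4.10% of matched cells. The cyclin Ccnb1, with 42 UMIs, and the kinase Plk1, with 50, were also at 0 in matched cells. The kinase Aurka had the fewest UMIs of all members in dividing cells, at 25.

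Spindle, centromere and checkpoint genes followed the same order. Nusap1, a microtubule protein of the spindle, had 259 CPM in dividing and 3.94 CPM in matched cells. The kinesin Kif11 had 192 and 1.82 CPM, and Tpx2, which activates Aurka, 174 and 2.10 CPM, dividing before matched. Birc5 was found in 56.0% of dividing and 1.47% of matched cells, and Cdca8 in 58.0% and 4.40%. Cenpf had 234 CPM in dividing and 1.52 CPM in matched cells, and the kinetochore motor Cenpe 145 and 1.52 CPM. Cenpa had 170 CPM in dividing and 20.1 CPM in matched cells. Ube2c, the enzyme that passes ubiquitin on at the end of mitosis, had 237 and 1.52 CPM, Cdca3 115 and 1.21 CPM, and the checkpoint kinase Bub1b 68.8 and 2.43 CPM.

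Of the replication members, Pclaf stood at 530 CPM in dividing and 0.606 CPM in matched cells. Pcna stood at 301 and 69.3 CPM and Tyms at 197 and 7.88 CPM. Hmgb2, a chromatin protein, had the most UMIs of all members. It was found in 50 of 50 dividing cells, at 2445 CPM, and in 74.2% of matched cells, at 183 CPM. Stmn1, which destabilizes microtubules, had 1157 CPM in dividing and 28.5 CPM in matched cells.

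Other genes of division that are no members moved alongside. Among the genes found in at least 25% of dividing cells, the 12 with the highest ratio of CPM over matched cells were Sgo2a, Ncapg, Cdkn3, Rad51ap1, Melk, Hist1h1b, Hist1h2bm, Kif4, Hist1h3c, Ccnf, Pbk and Ckap2l. Hist1h1b, a linker histone of S phase, had 1003 UMIs in dividing cells and was found in 56.0% of them, against 19 UMIs over the matched cells. Ncapg, a condensin subunit, had 66 UMIs in dividing cells and 1 in matched cells. Histone genes are a family of near-identical copies, and the way reads were divided among them is not given in the sources used here. Of the lists of further cell division genes, licensing and fork genes had a larger share in dividing cells for 15 of 15, condensin and cohesin for 8 of 8, kinetochore for 7 of 7, S phase histones for 7 of 7 and transcription control for 11 of 11.

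Transcription factors of the cell cycle were among them, with 45 UMIs of E2f8 in dividing and 0 in matched cells, 18 and 1 of Foxm1, and 19 and 2 of Mybl2.

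The list of G1 cyclins and kinases, which act before replication, had a larger share in dividing cells for 5 of 8 genes (62.5%), near the 67.1% of all genes with a UMI in these cells. Ccnd2, cyclin D2, stood at 248 CPM in dividing and 404 CPM in matched cells, and Ccnd3 at 241 and 455 CPM. Cdk6, the kinase partner of D cyclins, stood at 67.6 and 153 CPM. Ccne1, cyclin E1, which acts at the start of replication, was higher in dividing cells, at 36.6 and 7.96 CPM. Of the inhibitors 6 of 7 had a larger share in dividing cells, with a median of 34.0% against 9.30%. Cdkn2c stood at 58.8 CPM in dividing and 7.35 CPM in matched cells, while Cdkn1a stood at 13.3 and 26.3 CPM.

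Several members were found in cells without a UMI of Mki67 or Top2a, and their levels differed between types. Such cells can still hold other mitotic members, and Birc5 reached 103 CPM in the macrophages of 1 mouse. That value rests on few UMIs, since Birc5 had 7 UMIs over the 132 macrophages of all 10 mice, at a mean of 10.9 ± 32.5 CPM (SD). The levels that follow are summed over the cells of a type without a UMI of Mki67 or Top2a, as a mean over the 10 mice. Hmgb2 was at 978 ± 393 CPM in neutrophils, 390 ± 98.6 in monocytes, 343 ± 59.5 in NK or ILC1 cells, 290 ± 28.7 in T cells and 162 ± 18.1 in B cells (SD). Macrophages, dendritic cells and plasmacytoid dendritic cells lay at 177 to 203 CPM. Differences between types were not tested. The ranges over mice of monocytes, at 258 to 543 CPM, NK or ILC1 cells, at 237 to 428, and T cells, at 239 to 328, overlapped. In monocytes Hmgb2 stood at 473 ± 63.1 CPM in the treated mice and 307 ± 28.7 CPM in the untreated mice (SD, n = 5 each), which was not tested.

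Kif23, a kinesin that acts in the midbody at the end of division, was found in 39.3% of 107 neutrophils. It stood there at 155 ± 86.9 CPM, against 38.9 ± 45.9 CPM in monocytes, 11.7 ± 3.62 in T cells and 5.24 ± 1.79 in B cells (SD, n = 10). Of the 111 neutrophils 4 had a UMI of Mki67 and 0 of Top2a. Among lymphocytes Cenpa was highest in B cells, at 47.5 ± 10.2 CPM, then T cells, at 30.9 ± 7.76, and NK or ILC1 cells, at 17.1 ± 7.59 (SD, n = 10), with overlapping ranges between neighbours. Neutrophils, at 20.6 ± 21.7 CPM, and macrophages, at 17.5 ± 19.8 CPM, were as low as NK or ILC1 cells within their spread. Mcm6, a helicase subunit, had another order among lymphocytes, with NK or ILC1 cells at 70.7 ± 19.0 CPM, T cells at 46.6 ± 6.87 and B cells at 26.7 ± 4.598. Pcna was found in 8 types, from 53.5 ± 8.12 CPM in B cells to 83.0 ± 23.8 in NK or ILC1 cells.

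Summed over all CD45+ cells of a mouse, 1 member differed between the groups. Cenpa was lower in gonadotropin mice, at 34.9, 29.5, 32.3, 34.3 and 41.3 CPM, against 48.5, 40.1, 39.7, 47.8 and 47.5 CPM in untreated mice. The highest gonadotropin mouse overlapped the lowest 2 untreated ones. The log2 difference was -0.38 ± 0.10 (SE; edgeR quasi-likelihood test, adjusted p = 0.0294 over 11266 genes, n = 5 each). The call was lost without gonadotropin mouse 2, 3 or 4 or untreated mouse 1, 4 or 5 (edgeR adjusted p = 0.0547, 0.0622, 0.0676, 0.0620, 0.0591 and 0.0705). B cells, where Cenpa was highest, were 1051 of 2423 gonadotropin and 1386 of 2495 untreated cells. With equal numbers of each type taken from every mouse the difference was -0.24 (edgeR adjusted p = 0.571). Within B cells it was -0.20 and within T cells -0.34 (edgeR adjusted p = 0.467 and 0.439).

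Of the 40 members 32 had counts high enough to be tested, and 1 was called lower and 0 higher. Of all 11266 genes tested 9.12% were called, 4.97% higher and 4.15% lower, so the members' share of calls was not above that of all genes. At an unadjusted p under 0.05 edgeR had 4 of the 32 members, against 24.6% of all genes tested. The difference was positive in 8 of 32 members, with a median log2 difference of -0.30 against -0.00 over all genes. The number of dividing cells and the RNA per dividing cell cannot be told apart in such sums alone. Dividing cells numbered 29 in gonadotropin and 21 in untreated mice, so they were not fewer in gonadotropin mice. The part of each in the sums was not tested. Erythroid markers summed to 39.6 CPM in gonadotropin mouse 2 and to between 5987 and 10733 CPM in the other gonadotropin mice. In untreated mice they summed to 11.7 to 13.4 CPM, and their part in these differences was not tested.

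As a median, that leaning of the members rested on 1 untreated mouse. Untreated mouse 3 had the highest CPM of all 10 mice in 29 of the 32 members tested. It had 8 dividing cells among 318, and 5 of them were in the class with 17 or more mitotic members, against 1 or 2 in every other mouse. Top2a had 19.7, 11.5, 19.0, 15.5 and 26.9 CPM in gonadotropin mice, against 18.7, 14.1, 84.0, 17.5 and 17.1 CPM in untreated mice. The value of 84.0 was that of untreated mouse 3, and the other 4 untreated mice lay inside the range of the gonadotropin mice. Mki67 had 10.996, 6.48, 15.98, 10.5 and 21.4 CPM in gonadotropin mice, against 20.9, 5.40, 51.1, 15.5 and 20.2 CPM in untreated mice. Neither passed, at log2 differences of -0.68 ± 0.47 and -0.80 ± 0.46 (SE; edgeR adjusted p = 0.413 and 0.319, n = 5 each). Without untreated mouse 3 the median difference of the members was 0.07, 21 of 35 tested members were positive, and Top2a stood at 0.12. Some members stayed negative with any 1 mouse left out. Their highest log2 differences were -0.29 for Mki67, -0.25 for Stmn1, -0.74 for Rrm2, -0.82 for Cenpe and -0.33 for Cenpa.

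**Figure D5:**
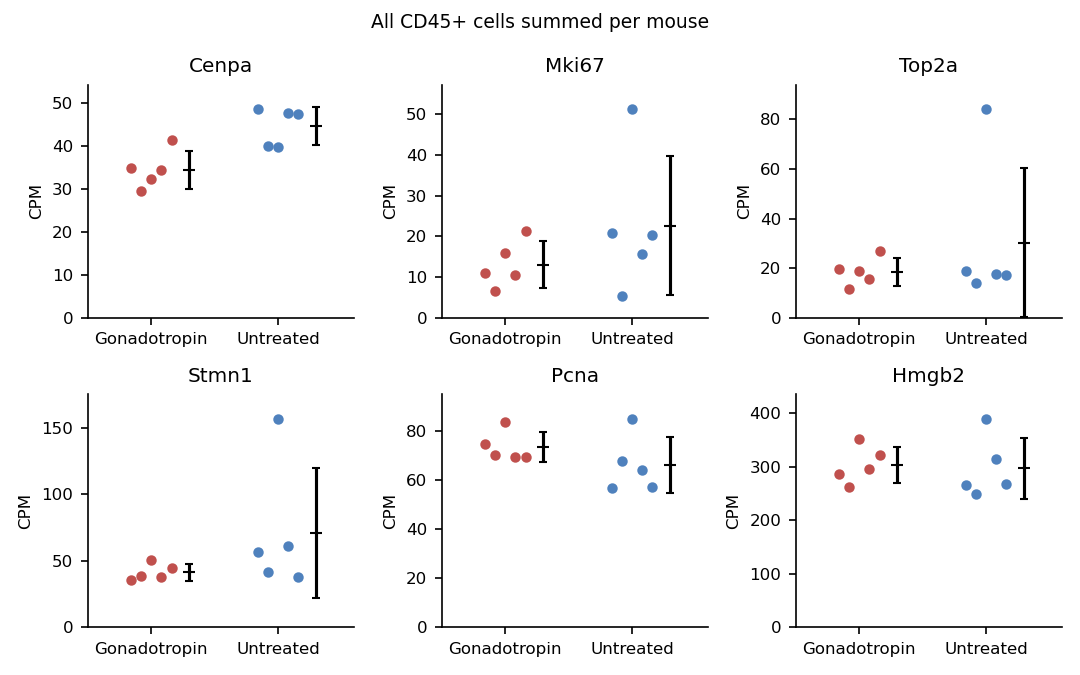
CPM of 6 members in all CD45+ cells summed per mouse, 1 point per mouse, with the mean and SD of each group beside the points (n = 5 each). Cenpa lies lower in gonadotropin mice with an overlap, while untreated mouse 3 sets the highest value of Mki67, Top2a, Stmn1, Pcna and Hmgb2.

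The members closest to the threshold besides Cenpa were Rrm2 and Cenpe. Rrm2 had 3.29 ± 1.45 CPM in gonadotropin and 8.50 ± 6.83 CPM in untreated mice, and Cenpe 3.81 ± 1.29 and 8.01 ± 4.24 CPM (SD, n = 5 each). Neither passed (edgeR adjusted p = 0.0933 and 0.105). DESeq2 called Rrm2 too, at -1.37 (adjusted p = 0.0415). Stmn1 had 41.4 ± 6.16 CPM in gonadotropin and 70.7 ± 48.8 CPM in untreated mice (edgeR adjusted p = 0.186). When the dividing cells were left out of the sums, Top2a turned to 1.005 and was called higher (edgeR adjusted p = 0.0330). That set was cut by a rule that uses Top2a, and the value comes from cells with Top2a but without Mki67.

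Within types no member passed. In B cells 0 of 14 tested members were called, against 2.22% of 9095 genes, in T cells 0 of 15 against 0.888% of 8105 genes, and in NK or ILC1 cells 0 of 4 against 0.0187% of 5358 genes. At an unadjusted p under 0.05 edgeR had 2 members in each of the 3 types, against 19.1% of genes in B cells, 12.2% in T cells and 7.67% in NK or ILC1 cells, and DESeq2 called 0 in each. Macrophages could not be fitted, since untreated mice had 9 to 13 of them. In B cells Stmn1 had 17.8 ± 6.80 CPM in gonadotropin and 50.2 ± 66.4 CPM in untreated mice, where untreated mouse 3 had 168 CPM and the other 4 had 13.4 to 29.5 (SD, n = 5 each; edgeR adjusted p = 0.237). Without that mouse the log2 difference was -0.20 and not -1.36.

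In NK or ILC1 cells Hmgb2 separated the groups without passing. It had 434, 372, 323, 452 and 406 CPM in gonadotropin mice, against 1327, 460, 983, 483 and 639 CPM in untreated mice. All gonadotropin mice were below all untreated mice, by little for 2 of them. The log2 difference was -0.92 ± 0.20 (SE; edgeR adjusted p = 0.103, n = 5 each). It passed without untreated mouse 2 (-1.09, edgeR adjusted p = 0.00917) and without untreated mouse 4 (-1.03, edgeR adjusted p = 0.0478). In NK or ILC1 cells without a UMI of Mki67 or Top2a, Hmgb2 stood at 345 ± 26.9 CPM in the treated mice and 342 ± 85.1 CPM in the untreated mice (SD, n = 5 each). The dividing NK or ILC1 cells of untreated mice 1 and 3, the 2 highest mice, held 214 and 163 UMIs of Hmgb2. Without the filter on low counts the adjusted p was 8.5e-13 (edgeR), but that setting called 20 of 40 members in these cells, against 0.61% of 15563 genes. In T cells Stmn1 had 49.5 ± 19.6 CPM in gonadotropin and 105 ± 56.6 CPM in untreated mice (SD, n = 5 each; edgeR adjusted p = 0.110, and 0.0309 without untreated mouse 2). Without the filter on low counts it was 9.6e-11 (edgeR), in a setting that called 8 of 40 members in T cells, against 1.47% of 17942 genes. Top2a had 16.3 ± 9.08 CPM in gonadotropin and 38.3 ± 29.5 CPM in untreated mice (edgeR adjusted p = 0.350; SD, n = 5 each).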

How the data were processed

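Single-cell RNA counts of ovarian CD45+ cells were deposited by the authors as UMI counts per gene and barcode for 2 pools, with a hashtag call, a mouse and a hashtag margin score, not used, per cell in the deposited metadata. Per the submitters' processing notes, bcl2fastq, Cell Ranger, Seurat and mm10 were used, with versions not given in the sources used here. The members and gene lists were chosen with earlier results of these data known.

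Barcodes with 1 hashtag were kept if they had 500 or more genes and less than 10% of UMIs from mitochondrial genes (4918 of 6468 barcodes); hashtag doublets (693 and 655) and negatives (69 and 20) were set aside, and no other doublet caller was run. Totals per mouse were 2608262 to 7097779 UMIs in gonadotropin and 2559097 to 6500466 in untreated mice. Types were gates on markers, not clusters. Dividing shares were compared over mice by exact two-sided permutation (5 against 5), and types within mice by exact sign flips, with Benjamini-Hochberg adjustment. A type needed 20 cells in 4 mice of each group, or 5 cells in 8 mice within mice. Exact (Clopper-Pearson) 95% intervals and the limit of 3 counts for a count of 0 cover counting error only.

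Counts summed per mouse were tested with edgeR 4.0.16 quasi-likelihood (TMM, filterByExpr, R 4.3.3), at an adjusted p of 0.05 over all genes tested. On simulated counts 90.0% of 200 genes changed 2-fold were recovered in the comparison of all CD45+ cells, and 8.63% of the calls were false. This rate is not that of each member, since Rrm2 was not called at a log2 difference of -1.34 ± 0.47 (SE). DESeq2 1.42.0, RLE factors, no low-count filter, other gates, thinning to 2000 and 4000 UMIs, an even cell mix, cells without division and each mouse left out were alternatives. Genes named were Mki67 and Top2a, members past the threshold, the 3 with the most UMIs in dividing cells per role, those with the fewest, and the 12 other genes of the highest ratio in at least 25% of dividing cells, gene models left out; further genes were named after their values were seen. Python 3.11.15, numpy 2.4.6, scipy 1.17.1 and pandas 2.3.3 were used.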

Additional observations from a re-analysis of the deposited data

Results flagged for a closer look

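Untreated mouse 3 stood apart from the other 4 untreated mice in 16 of 17 groups of mice with a sample far from the rest, of 84 groups examined. Chance flags about 1 in 20 groups, and these groups share cells and mice. Its dividing share of B cells was 2.38%, against 0 to 0.395% in the others. Over all CD45+ cells its CPM was far above the others for Top2a (84.0), Stmn1 (156), Pclaf (52.4), Birc5 (27.7), Nusap1 (24.1), Rrm2 (20.5), Kif11 (18.6), Cdca8 (17.3), Uhrf1 (14.3), Cdk1 (12.7), Cdca3 (12.1), Bub1b (7.82) and Gins2 (7.82). In B cells the same held for Mcm6 at 59.5 CPM, against 27.5 to 33.5, and Stmn1 at 168 CPM, against 13.4 to 29.5. Its 8 dividing cells held 84.5% of its mitotic UMIs, against 23.2% to 55.0% in the other 9 mice.

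Among gonadotropin mice, mouse 2 had 7.66 CPM of Cdk1, against 1.64 to 2.93 in the other 4. The dividing cell with granulosa genes was from this mouse and held 21 UMIs of Cdk1.

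Barcodes with more than 1 hashtag, which no comparison used, held more dividing cells in the gonadotropin pool. They were 38 of 693 (5.48%, exact 95% interval 3.91% to 7.45%), against 9 of 655 (1.37%, 0.630% to 2.59%) in the untreated pool. Those gated as macrophages had 13 of 121 and 0 of 20, gonadotropin before untreated. These barcodes belong to no single mouse, so the difference was not tested over mice.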

How the results depend on the processing

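No paired analysis was possible because the mouse numbers of the hashtags only name the mice within a pool. The difference in dividing share between the groups changed sign with at least 2 UMIs of each gene and when thinned to 2000 UMIs: -0.169 and -0.221 percentage points over all cells, -0.313 and -0.116 in B cells, and -0.0587 and -0.564 in T cells. In B cells it was also -0.600 with at least 5 mitotic members. Leaving out 1 mouse gave -0.249 to 0.489 in B cells and -0.314 to 0.400 in T cells, with 0.0582 to 0.698 over all cells and -1.09 to -0.132 in NK or ILC1 cells. None of these passed (exact permutation). Against the other cells of the same mouse, NK or ILC1 cells turned to 0.264 with 2 UMIs of each gene and to 0.357 and 0.406 at 2000 and 4000 UMIs, with -0.544 to 0.0215 over mice left out, and T cells to -0.442 with at least 5 mitotic members, with -0.0521 to 0.321. B cells no longer passed with 2 UMIs of each gene (-0.417), nor macrophages with 2 UMIs of each gene (2.64) or at 2000 UMIs (3.79); at 4000 UMIs too few macrophages were left for a test. Without each mouse in turn macrophages stayed at 4.90 to 6.99.

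Members called over all cells were 2 with DESeq2 and 0 with an even cell mix, and 0 to 2 over mice left out. Without a filter on low counts 5 of 40 members were called in B cells, against 2.84% of 18835 genes, 8 of 40 in T cells, against 1.47% of 17942, and 20 of 40 in NK or ILC1 cells, against 0.61% of 15563; over mice left out the counts were 0 to 1 in T cells and 0 to 2 in NK or ILC1 cells. The cause was not tested. Top2a reversed to 1.005 without dividing cells and to 0.12 without untreated mouse 3, with -0.87 to 0.12 over mice left out. Genes called over all cells were 1027, and 106 with the even cell mix, which tested fewer cells. In B cells they were 202, against 535 without the filter, 331 with DESeq2 and 40 to 242 over mice left out. In T cells they were 72, against 264 without the filter and 25 to 139. In NK or ILC1 cells they were 1, against 95 without the filter, 12 with DESeq2 and 1 to 22. The 38 members other than Mki67 and Top2a had a larger share in dividing cells in each of the 4 other ways of matching. Depth limits the call of single cells: 10 of 50 rested on 1 UMI of each gene.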

Other observations

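Another rule, by members detected rather than by Mki67 and Top2a, found 56 of 4918 cells with at least 5 of 26 mitotic members, which leaves out the 14 dividing cells with 2 to 4 and takes in cells that were not dividing by the rule above. Of the 56, 32 were from gonadotropin and 24 from untreated mice. Macrophages had 20 of 163, B cells 12 of 2437 and T cells 10 of 1260. Of 17 mast-gated cells 2 had at least 5 mitotic members, both from untreated mice, and 0 were dividing. In the reverse direction, 133 cells had a UMI of Mki67 and 242 a UMI of Top2a, of which 50 had both. NK or ILC1 cells had a Top2a UMI in 40 of 368 gonadotropin and 11 of 183 untreated cells, a difference that was not tested. Over all types, gonadotropin mice had it in 32 of 563, 22 of 378, 26 of 290, 39 of 828 and 29 of 364 cells. Untreated mice had it in 13 of 505, 27 of 650, 19 of 318, 10 of 296 and 25 of 726 cells. The counts of all cells thus leaned the same way, and the lean is not a trait of NK or ILC1 cells alone.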
